A study of Bos taurus with 28 samples.

Results

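The solute carriers are membrane proteins that carry ions and small molecules across cell and organelle membranes. They were taken as every gene on the array whose symbol is SLC followed by a family number, a letter and a member number, leaving out the mitochondrial carriers (SLC25) and the fatty acid transport proteins (SLC27). This gave 130 of the 8073 genes with a single symbol. By their known location, assigned by family, 90 work at the plasma membrane and 40 at internal membranes, so the set covers organelle carriers as well as those of the cell surface. A ratio in enough cows for a test was available for 108 members, and 22 members were not tested.

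Liver RNA came from 14 multiparous Holstein cows that were found healthy on day 4 after calving and were assigned at random. In the ketotic group, 7 cows were given 50% of their earlier feed intake from day 5, as the design text has it (the sample labels say day 4), until clinical signs of ketosis or day 14 at the latest. The 7 cows of the healthy group were the controls. Each cow's liver was set against a reference RNA made from several cattle tissues on 2 microarrays with the dyes exchanged, so there were 28 arrays and n is cows. The sources used here give neither age nor sampling day of a cow. The labels do not say whether the ketotic cows were sampled before or after refeeding.

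Every value below is a log2 ratio of liver over reference, relative to the median probe of its array. A value of 1 is a 2-fold excess of liver over the reference, and it says nothing of how abundant a transcript is compared with another. The direction of the ratios is likely rather than stated: with Cy5 taken as the numerator, hepatocyte markers lay above genes of other tissues on 28 of 28 arrays. Differences are ketotic minus healthy, errors are limma's standard errors, and a gene was called at an adjusted p under 0.05 over all 6958 tested genes. In whole liver, fewer cells of a type and less RNA per cell cannot be told apart.

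All 19 tested hepatocyte markers were above the reference in healthy liver. Such markers also served to judge the direction of the ratios, so this is no separate check of the tissue label. The median of the 19 markers per cow ran from 5.37 to 6.87 in ketotic cows and from 5.30 to 7.21 in healthy cows 1 to 6. Of these markers ALB and APOA1 were called higher in ketotic cows, with all cows (10.5%, against 0.92% of all genes) and without healthy cow 7. Without that cow APOB was also called, as lower (-1.44, adjusted p = 0.0412, against -0.26 with all cows). The median difference of the list was 0.59 with all cows and 0.24 without that cow. Over all genes these medians were -0.18 and -0.19. In the fit without that cow 1.5% of all genes were higher and 18.4% lower. Healthy cow 7 stood apart, with a hepatocyte marker median of 3.09. Its profile correlated with the other healthy cows at a median r of 0.434, while every other cow reached 0.876 or more within its group. Differences without it stand beside those of named genes whose sign or call it changes or whose size it moves by more than 1.5 times. The share of the solute carriers' spots without a ratio was 12.9% ± 4.57 in ketotic and 8.80% ± 2.97 in healthy cows (SD, n = 7 each, exact permutation p = 0.0693, adjusted over 5 measures 0.116). Over all spots this share was 16.5% ± 4.49 in ketotic and 11.9% ± 2.80 in healthy cows (exact permutation p = 0.0338, adjusted 0.0845). The spread of log2 ratios within an array, as a median absolute deviation, was 1.21 ± 0.16 in ketotic and 0.96 ± 0.12 in healthy cows (exact permutation p = 0.0105, adjusted 0.0524).

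Hepatocytes use solute carriers to take up bile acids, amino acids, organic acids and metals from the blood and to send glucose back to it. In ruminants little glucose is absorbed from the gut, and the liver makes it from propionate, lactate and amino acids. When feed is short, body fat is mobilised and the liver releases ketone bodies, which cross membranes through the monocarboxylate transporters. Zinc enters the cytosol through the ZIP family (SLC39) and leaves it through the ZnT family (SLC30), while ferroportin (SLC40A1) is the exporter of iron. Carriers of the SLC35 family bring nucleotide sugars into the Golgi and endoplasmic reticulum for glycosylation.

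Few solute carriers differed between ketotic and healthy liver. Of the 108 tested, 6 were lower in ketotic cows and 1 was higher. The lower ones were the zinc transporters SLC39A1 and SLC39A11, the SLC35 family members SLC35A4 and SLC35A5, the lysosomal peptide transporter SLC15A3 and the choline transporter-like SLC44A2. The higher one was SLC7A7, an exchanger of cationic and neutral amino acids. Only SLC39A1 and SLC7A7 changed at least 2-fold among them. The 7 called members make 6.48% of those tested, against 13.4% of all 6958 genes, of which 12.4% were lower and 0.92% higher. The members' median difference was -0.06 and that of all genes was -0.18. With arrays centred on probes measured on all arrays these medians were 0.07 and -0.05, and 3 members were lower and 2 higher. On values as deposited they were -0.46 and -0.58, with 20 lower and 0 higher. No class of carriers held more than 2 lower members.

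**Figure D1:**
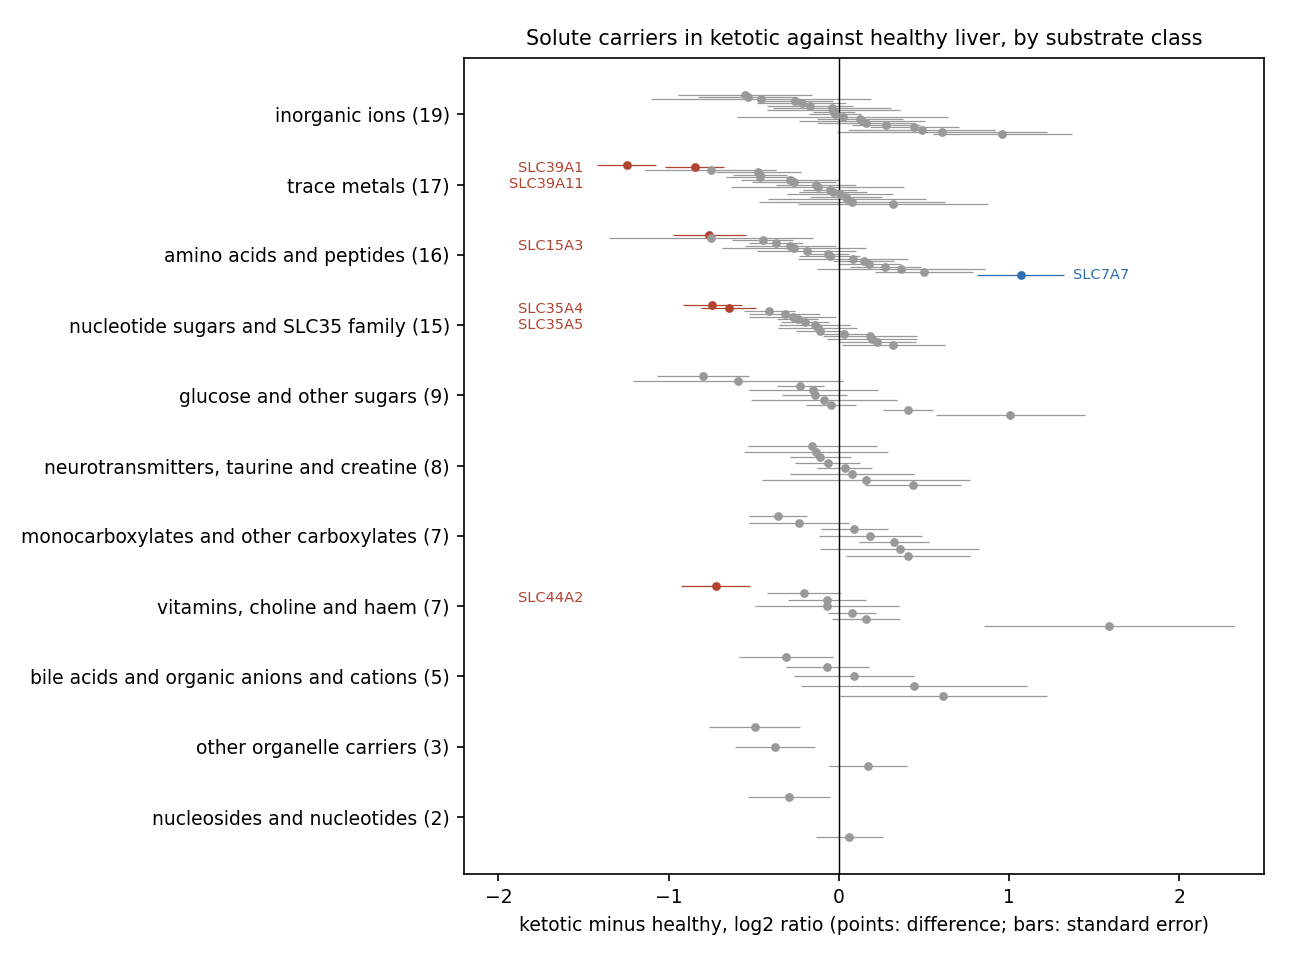
Ketotic minus healthy difference in the log2 ratio of liver over reference (horizontal axis) for the 108 tested solute carriers, in rows by substrate class with the number tested in brackets. Points are differences and bars are standard errors, red marks called members that were lower, blue the called member that was higher and grey the rest. The 7 called members lie at the outer edge of 4 classes, and every class has members on both sides of 0.

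SLC39A1, a ZIP family importer of zinc, had the smallest p among the members. Its log2 ratio ran from -1.76 to -0.76 (median -1.01) in ketotic cows and from -0.19 to 0.59 (median 0.06) in healthy cows. All 7 ketotic cows lay below all 7 healthy ones. The difference was -1.25 (SE 0.17, 2.37-fold lower, adjusted p = 0.00241), and it was called under each of 17 other settings and with any of the 14 cows left out, with values between -1.65 and -0.89. Healthy cow 7 was the highest healthy cow for this gene, and without it the difference was -1.17 (adjusted p = 0.00118).

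SLC39A11 releases zinc from organelles into the cytosol. It ran from -0.82 to -0.10 (median -0.44) in ketotic cows and from -0.07 to 0.80 (median 0.47) in healthy cows. The groups did not overlap, although the highest ketotic and the lowest healthy cow were close, and the lowest healthy value belonged to cow 7. The difference was -0.85 (SE 0.17, 1.80-fold lower, adjusted p = 0.00745). With the liver in Cy5 alone it was not called (adjusted p = 0.0612).

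SLC35A4 and SLC35A5 belong to the nucleotide sugar transporter family, and the substrate of SLC35A4 is not settled. SLC35A4 ran from -2.14 to -1.44 (median -1.54) in ketotic cows and from -1.38 to -0.43 (median -0.996) in healthy cows, with no overlap, and differed by -0.74 (SE 0.17, adjusted p = 0.0130). SLC35A5 ran from -0.53 to 0.12 (median -0.39) in ketotic cows and from -0.03 to 0.71 (median 0.48) in healthy cows. Its groups overlapped, although no ketotic cow reached the healthy mean, and differed by -0.65 (SE 0.16, adjusted p = 0.0179). Healthy liver stood below the reference for SLC35A4 and above it for SLC35A5.

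SLC15A3 carries histidine and peptides out of lysosomes and is known from immune cells. It ran from -2.08 to -0.93 (median -1.14) in ketotic cows and from -1.21 to 0.09 (median -0.63) in healthy cows. The groups overlapped because 1 healthy cow was among the ketotic values, and the difference was -0.76 (SE 0.21, 1.70-fold lower, adjusted p = 0.0295). It was not called without ketotic cow 2 or without healthy cow 5 (adjusted p up to 0.0536). Of 8 tested macrophage markers, CD74 (-0.88) and LAPTM5 (-0.96) were called lower too (25%, against 12.4% of all genes). Differences below 0 were found for 7 of the 8, and for 67.2% of all genes. Without healthy cow 7, C1QB was also called (-1.03, adjusted p = 0.0388), and the median difference of the list was -0.64, against -0.21 with all cows. The median over all genes was -0.18 with all cows and -0.19 without cow 7, where 18.4% of all genes were lower. Over all 8, the median per cow ran from 0.79 to 2.37 in ketotic and from 0.56 to 2.91 in healthy cows. Of 5 tested lymphocyte markers, GNLY and PTPRC were lower and CD79B was higher (60% called, against 13.4% of all genes, 12.4% lower and 0.92% higher). The part of these cells in the fall of SLC15A3 was not tested.

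SLC44A2, a choline transporter-like protein, ran from -2.19 to -0.90 (median -1.65) in ketotic cows and from -1.23 to -0.33 (median -0.86) in healthy cows. The ketotic cows were mostly the lower ones, with overlap, and the difference was -0.72 (SE 0.21, 1.65-fold lower, adjusted p = 0.0306). Its call was lost in 7 of the 14 fits that left out a cow, more often than that of any other called member, with adjusted p up to 0.0610. These were the fits without ketotic cow 1, 2, 5 or 7 and without healthy cow 1, 5 or 6.

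SLC7A7 pairs with the heavy chain SLC3A2 to exchange cationic for neutral amino acids. It ran from 1.04 to 2.10 (median 1.57) in ketotic cows and from -0.70 to 1.01 (median 0.69) in healthy cows. The lowest ketotic cow lay just above the highest healthy cow, and the lowest healthy value was that of cow 7. The difference was 1.07 (SE 0.26, 2.10-fold higher, adjusted p = 0.0148). Without healthy cow 7 it was 0.87 and was called as well (adjusted p = 0.00619). On values as deposited, without centring, it was not called, nor with each array scaled to 1 spread.

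**Figure D2:**
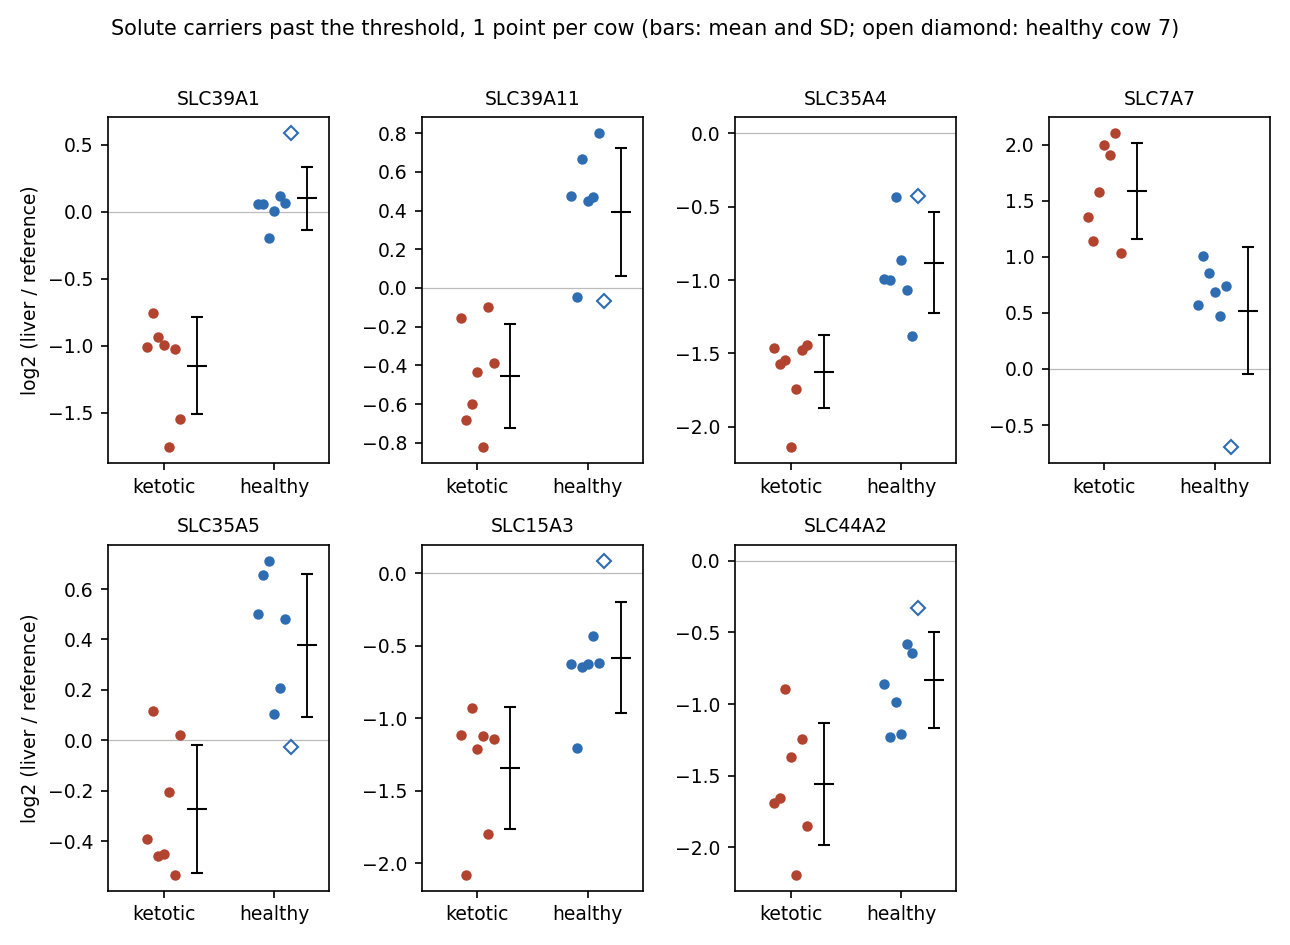
Log2 ratio of liver over reference in each cow for the 7 called solute carriers, ketotic cows on the left and healthy cows on the right of each panel. Points are cows, bars are the mean and SD, and the open diamond is healthy cow 7. SLC39A1 shows the clearest gap between the groups, and SLC35A5, SLC15A3 and SLC44A2 overlap.

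Groups of cows did not overlap for SLC39A1, SLC39A11 and SLC35A4 (lower) and SLC7A7 (higher), which is 4 members, while 5.71% of all tested genes had groups that did not overlap. Leaving out healthy cow 7 gave 8 lower members and 1 higher, against 19.9% of all genes called in that fit, 18.4% lower and 1.5% higher. The copper uptake transporter SLC31A1 (-0.69, adjusted p = 0.0107) and the organelle zinc transporter SLC39A7 (-0.55, adjusted p = 0.0117) were then called. Both were singled out after their values were seen. With all 14 cows SLC31A1 differed by -0.47 (adjusted p = 0.228) and SLC39A7 by -0.46 (adjusted p = 0.0632). At an unadjusted p under 0.05, 12 of the 108 members were lower and 4 were higher, against 24.4% and 4.01% of all genes.

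The members' calls were not all kept with arrays of 1 dye or with empty spots in the model, and the cause was not tested. With the liver in Cy5 alone only SLC39A1 was called, and with each cow's share of empty spots as a covariate SLC39A1 and SLC39A11 were called. SLC15A3, SLC35A4, SLC44A2 and SLC7A7 were not called with 1 spread per array or with quantile normalisation.

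Trace metal carriers held 2 of the 6 falls. Of 17 tested, SLC39A1 and SLC39A11 were lower (11.8%, near the 12.4% of all genes), and the class median was -0.13, or -0.36 without healthy cow 7. Among the 10 ZIP family members tested, 7 had a difference below 0, as had 67.2% of all genes. ZIP14 (SLC39A14), the liver importer of zinc, manganese and iron not bound to transferrin, ran from 4.31 to 5.00 in ketotic cows and from 1.60 to 5.69 in healthy cows, where all but cow 7 were at 4.51 or more. Its difference was 0.05 (SE 0.46, adjusted p = 0.962), or -0.44 without healthy cow 7, and the range of its ketotic cows lay inside the healthy range with that cow counted. Ferroportin (SLC40A1) ran from 4.00 to 5.59 in ketotic cows and from 0.80 to 5.35 in healthy cows, where all but cow 7 were at 3.74 or more, and differed by 0.32 (SE 0.56, adjusted p = 0.765), or by -0.23 without healthy cow 7. The zinc exporter ZnT1 (SLC30A1) differed by -0.13 (SE 0.24, adjusted p = 0.769), or by -0.30 without healthy cow 7, and the zinc importer SLC39A10 by -0.12 (SE 0.51, adjusted p = 0.906), or by 0.15 without that cow.

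Other genes of metal handling gave 1 call among 11 tested with all cows (9.09%, against 12.4% of all genes lower) and 3 without healthy cow 7, all of them lower. In the fit without that cow 18.4% of all genes were lower. FTH1, the heavy chain of the iron store ferritin, fell by 1.11 on the log2 scale (adjusted p = 0.00314). ATOX1, a copper chaperone, differed by -0.87 (adjusted p = 0.0701) with all cows and by -1.12 (adjusted p = 0.00385) without cow 7. COX17, which passes copper to cytochrome oxidase, differed by -0.45 (adjusted p = 0.226) with all cows and by -0.61 (adjusted p = 0.0371) without it. Transferrin receptor TFRC (-0.16), transferrin TF (0.51), ceruloplasmin CP (0.33) and metallothionein MT2A (0.13) were not called. Without cow 7 the difference of TFRC was -0.27, that of TF 0.06 and that of CP -0.57.

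Amino acid and peptide carriers gave 1 fall (SLC15A3) and 1 rise (SLC7A7) among 16 tested (12.5%, near the 13.4% of all genes called). The class median was -0.06, or 0.01 without healthy cow 7. SLC3A2 (CD98), the heavy chain that SLC7A7 and SLC7A5 share, ran from -2.01 to -1.22 (median -1.52) in ketotic cows and from -1.41 to -0.30 (median -1.24) in healthy cows. Every ketotic cow lay below the healthy mean of -1.11. Without healthy cow 7, the highest at -0.30, that mean was -1.25, and the highest ketotic cow lay above it. The difference of -0.45 (SE 0.18) was not called (adjusted p = 0.113). SLC7A5 (LAT1), an exchanger of large neutral amino acids, differed by 0.18 (SE 0.19, adjusted p = 0.578). Its 2 probes differed by 0.44 and -0.08, and stood at -1.09 and -0.48 in healthy liver. SLC1A5, which exchanges glutamine, had nearly equal groups, from -1.01 to -0.77 in ketotic and from -1.10 to -0.61 in healthy cows (difference -0.06, SE 0.12).

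SLC38A2 (SNAT2), which takes up alanine and glutamine and responds to amino acid lack, spread widely in both groups. It ran from -4.26 to -0.86 (median -3.22) in ketotic cows and from -2.94 to 0.26 (median -2.36) in healthy cows. The difference of -0.75 (SE 0.60, adjusted p = 0.448) was within that spread, and it was -0.40 without healthy cow 7.

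No glucose or sugar carrier was called among 9 tested. GLUT1 (SLC2A1), the widely expressed glucose transporter, ran from -3.65 to -1.94 (median -2.10) in ketotic cows and from -2.16 to -0.95 (median -1.60) in healthy cows. Every ketotic cow lay below the healthy mean, and the difference was -0.80 (SE 0.27, adjusted p = 0.0641). GLUT4 (SLC2A4), the insulin-responsive transporter of muscle and fat, ran from 0.71 to 1.39 (median 0.91) in ketotic cows and from 0.24 to 0.98 (median 0.60) in healthy cows. Every ketotic cow lay above the healthy mean, and the difference was 0.41 (SE 0.15, adjusted p = 0.0824). Neither reached the threshold with all cows or without healthy cow 7.

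The glucose 6-phosphate transporter of the endoplasmic reticulum, SLC37A4, brings the substrate of glucose 6-phosphatase to its enzyme in the last step of glucose release. It ran from 2.32 to 3.48 (median 3.24) in ketotic cows and from 1.12 to 4.24 (median 3.43) in healthy cows, with a difference of -0.15 (SE 0.38, adjusted p = 0.841). The lowest healthy value was that of cow 7, and the other healthy cows were at 3.13 or more, above the 2 lowest ketotic cows (2.32 and 2.81). Without cow 7 the difference was -0.50 (adjusted p = 0.131). SGLT1 (SLC5A1), the sodium-glucose cotransporter of the intestine, ran from 1.31 to 3.12 (median 2.21) in 6 ketotic cows and from -0.29 to 4.37 (median 3.27) in 7 healthy cows. Healthy cow 7 was again the lowest. The difference was -0.59 (SE 0.62, adjusted p = 0.579) with all cows and -1.12 (adjusted p = 0.0528) without it. GLUT3 (SLC2A3), known from neurons, differed by -0.09 (SE 0.43, adjusted p = 0.921). GLUT2 (SLC2A2), the low-affinity transporter of hepatocytes, was not analysed here.

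Monocarboxylate and other carboxylate carriers gave no call among 7 tested. MCT2 (SLC16A7), a high-affinity carrier of pyruvate, lactate and ketone bodies, ran from 0.56 to 1.29 (median 0.85) in ketotic cows and from 0.82 to 1.67 (median 1.05) in healthy cows. Of the ketotic cows 6 of 7 lay below the healthy mean, and the difference was -0.36 (SE 0.17, adjusted p = 0.184). MCT4 (SLC16A3), the lactate exporter of glycolytic cells, ran from -3.03 to -1.58 (median -2.12) in ketotic cows and from -3.05 to -0.85 (median -2.54) in healthy cows. Its groups overlapped (difference 0.18, SE 0.30, adjusted p = 0.745, or 0.43 without healthy cow 7). MCT1 (SLC16A1) and the citrate carrier SLC13A5 were not analysed here.

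Basigin (BSG), the chaperone that brings monocarboxylate transporters to the cell surface, was lower in ketotic cows (difference -1.12, SE 0.23, adjusted p = 0.00750). ATP1B3, a beta subunit of the sodium pump that powers sodium-coupled carriers, was lower as well (-1.19, SE 0.23, adjusted p = 0.00559). These were the 2 called genes among 13 tested partners of the solute carriers (15.4%, against 13.4% of all genes), a list of subunits, scaffolds and carbonic anhydrases. PDZK1, a scaffold of membrane carriers, and the subunits ATP1B1 and FXYD2 were not called (-0.16, -0.12 and 0.12). Without healthy cow 7 the difference of PDZK1 was -0.67 (adjusted p = 0.0658).

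The bile acid and organic ion carriers gave no call among 5 tested. NTCP (SLC10A1), which brings bile acids into hepatocytes with sodium, ran from 4.16 to 5.65 (median 4.77) in ketotic cows and from 0.65 to 6.42 (median 4.31) in healthy cows. The difference was 0.44 (SE 0.67, adjusted p = 0.718), and -0.18 (adjusted p = 0.795) without healthy cow 7, so its sign followed that cow. SLC22A17, of the organic cation and anion transporter family, differed by -0.31 (SE 0.28, adjusted p = 0.505), or by -0.19 without that cow. Of 21 other transporters tested, the organic anion transporting polypeptides and ABC transporters, only ABCB10, a mitochondrial ABC transporter, was called (-0.76, SE 0.20, adjusted p = 0.0206). That is 4.76% of them, against 12.4% of all genes lower. Without healthy cow 7, 3 of the 21 were lower: ABCB10, the sterol exporter subunit ABCG8 (-1.88, adjusted p = 0.0222) and the peroxisomal ABCD3 (-0.60, adjusted p = 0.0350). In that fit 18.4% of all genes were lower. With all cows ABCG8 differed by -1.37 (adjusted p = 0.203) and ABCD3 by -0.60 (adjusted p = 0.0550). The OATP members SLCO1B3 (-0.07) and SLCO2B1 (0.13), which take up organic anions in hepatocytes, were not called, and SLCO2B1 differed by -0.14 without cow 7.

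Choline and vitamin carriers had SLC44A2 as the only call among 7 tested (14.3%, near the 12.4% of all genes lower). Its relative SLC44A1, a choline transporter, ran from -1.09 to 0.02 (median -0.93) in ketotic cows and from -1.03 to 0.01 (median -0.60) in 6 healthy cows, with a difference of -0.21 (SE 0.22, adjusted p = 0.584). The carnitine transporter OCTN2 (SLC22A5) had values in 4 ketotic and 6 healthy cows and was not tested. The largest positive difference among the members was that of the high-affinity choline transporter SLC5A7, singled out after its value was seen: 1.59 (SE 0.73, adjusted p = 0.181) with 5 cows in each group. Of its usable spot values 50.0% equalled the ratio of 2 whole numbers up to 10, as a spot near background gives, against 9.54% over the arrays.

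Ion carriers were the largest class, with no call among 19 tested and a class median of -0.02, or 0.01 without healthy cow 7. SLC4A9, of the bicarbonate transporter family, had the smallest p in the class, with a difference of 0.96 (SE 0.41, adjusted p = 0.140) over 6 cows in each group. Of its usable spot values 23.8% equalled a ratio of whole numbers up to 10, against 9.54% over the arrays. Band 3 (SLC4A1), the anion exchanger of red blood cells, differed by 0.28 (SE 0.20, adjusted p = 0.390). The phosphate carrier SLC34A2 differed by -0.55 (SE 0.39), the sodium, potassium and chloride cotransporter SLC12A2 by -0.45 (SE 0.65) and the magnesium transporter family member SLC41A2 by 0.14 (SE 0.37), with adjusted p between 0.388 and 0.853. Without healthy cow 7 the difference of SLC34A2 was -0.26, that of SLC12A2 -0.03 and that of SLC41A2 -0.16.

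Both nucleoside carriers were tested and neither was called. ENT1 (SLC29A1), the equilibrative nucleoside transporter, ran from 1.68 to 2.29 (median 2.08) in ketotic cows and from 1.47 to 3.35 (median 2.26) in healthy cows. Its 7 ketotic cows lay below the healthy mean, and the difference was -0.29 (SE 0.24, adjusted p = 0.462). The lowest healthy cow was cow 7, and without it the healthy cows began at 2.02 and the difference was -0.45 (adjusted p = 0.147). Among 8 carriers of neurotransmitters, taurine and creatine, the smallest p was that of the serotonin transporter SLC6A4 (0.44, SE 0.28, adjusted p = 0.334). The taurine transporter SLC6A6 differed by -0.16 (SE 0.38) and the vesicular glutamate transporter SLC17A7 by 0.16 (SE 0.61). Without healthy cow 7 the difference was 0.15 for SLC6A6 and 0.67 for SLC17A7. In the remaining organelle carriers, the lysosomal SLC66A1 differed by -0.49 (SE 0.27, adjusted p = 0.239). Of the 15 SLC35 members, SLC35A4 and SLC35A5 were the called ones (13.3%, near the 12.4% of all genes lower). A difference below 0 was found for 10 of the 15, near the 67.2% of all genes. SLC35F2 differed by 0.32 (SE 0.30, adjusted p = 0.538).

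Compared with the mixed-tissue reference, healthy liver was above it for 43 of the 108 solute carriers and below it for 33. Over all genes, 30.9% were called above and 37.4% below. The members' median ratio was 0.14 and that of all genes was -0.10. A ratio of at least 2-fold was found above the reference for 20 members and below it for 20. Among all 6958 tested genes, 846 were at least 2-fold above and 1134 at least 2-fold below. The reference is a single RNA pool, so its own spread does not enter these errors.

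**Figure D3:**
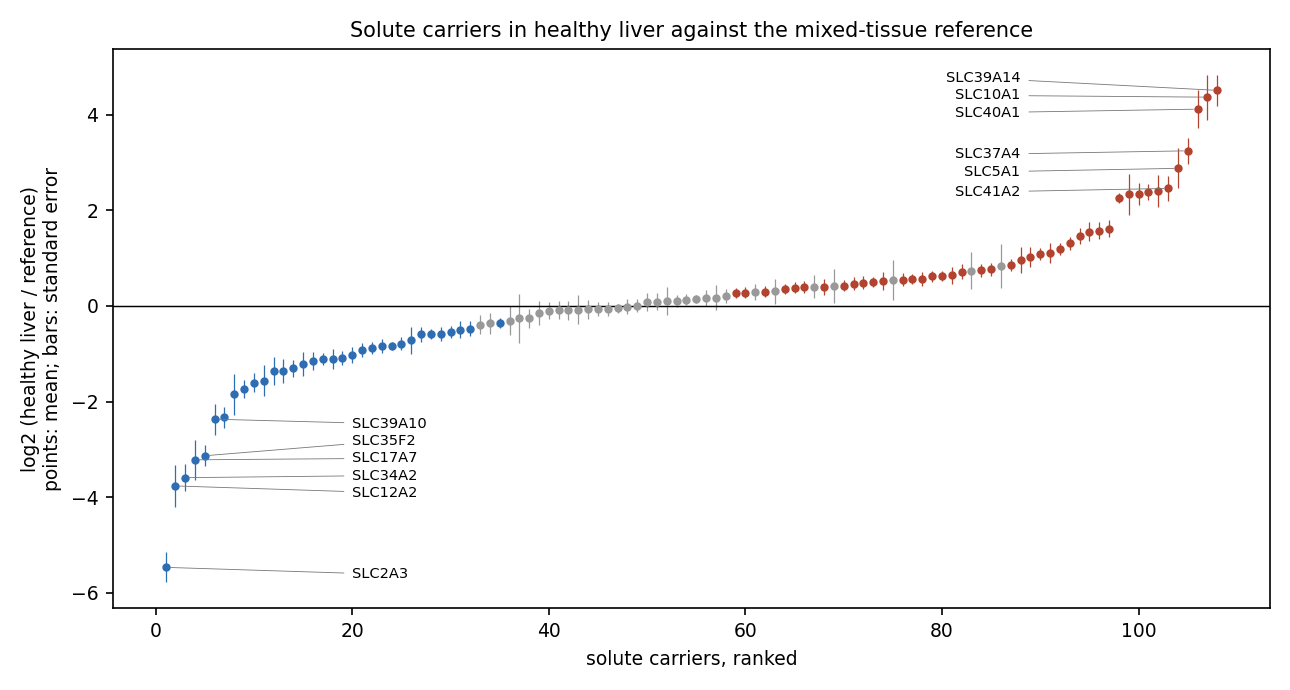
Mean log2 ratio of healthy liver over the reference (vertical axis) for the 108 tested solute carriers, ranked from lowest to highest. Bars are standard errors, red marks members called above the reference, blue those called below and grey the rest. The 6 lowest and 6 highest are labelled, from SLC2A3 at -5.47 to SLC39A14 at 4.51.

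The 6 highest ratios were those of carriers of metals, bile acids, glucose and glucose 6-phosphate. SLC39A14 stood at 4.51 in healthy liver (SE 0.33, 22.8-fold over the reference), SLC10A1 at 4.37 (SE 0.47, 20.6-fold) and SLC40A1 at 4.11 (SE 0.39, 17.3-fold). Next came SLC37A4 at 3.24 (9.47-fold), SLC5A1 at 2.88 (7.35-fold) and SLC41A2 at 2.46 (5.49-fold). Adjusted p-values for these 6 ran from 1.56e-08 to 2.62e-05. Healthy cow 7 was the lowest healthy cow for each of the 6. Without it SLC39A14 stood at 4.99, SLC10A1 at 4.99, SLC40A1 at 4.67, SLC37A4 at 3.60, SLC5A1 at 3.40 and SLC41A2 at 2.75. SLC5A1 is best known from the intestine, and its ratio here compares liver with a pool whose tissues the labels do not list.

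**Figure D4:**
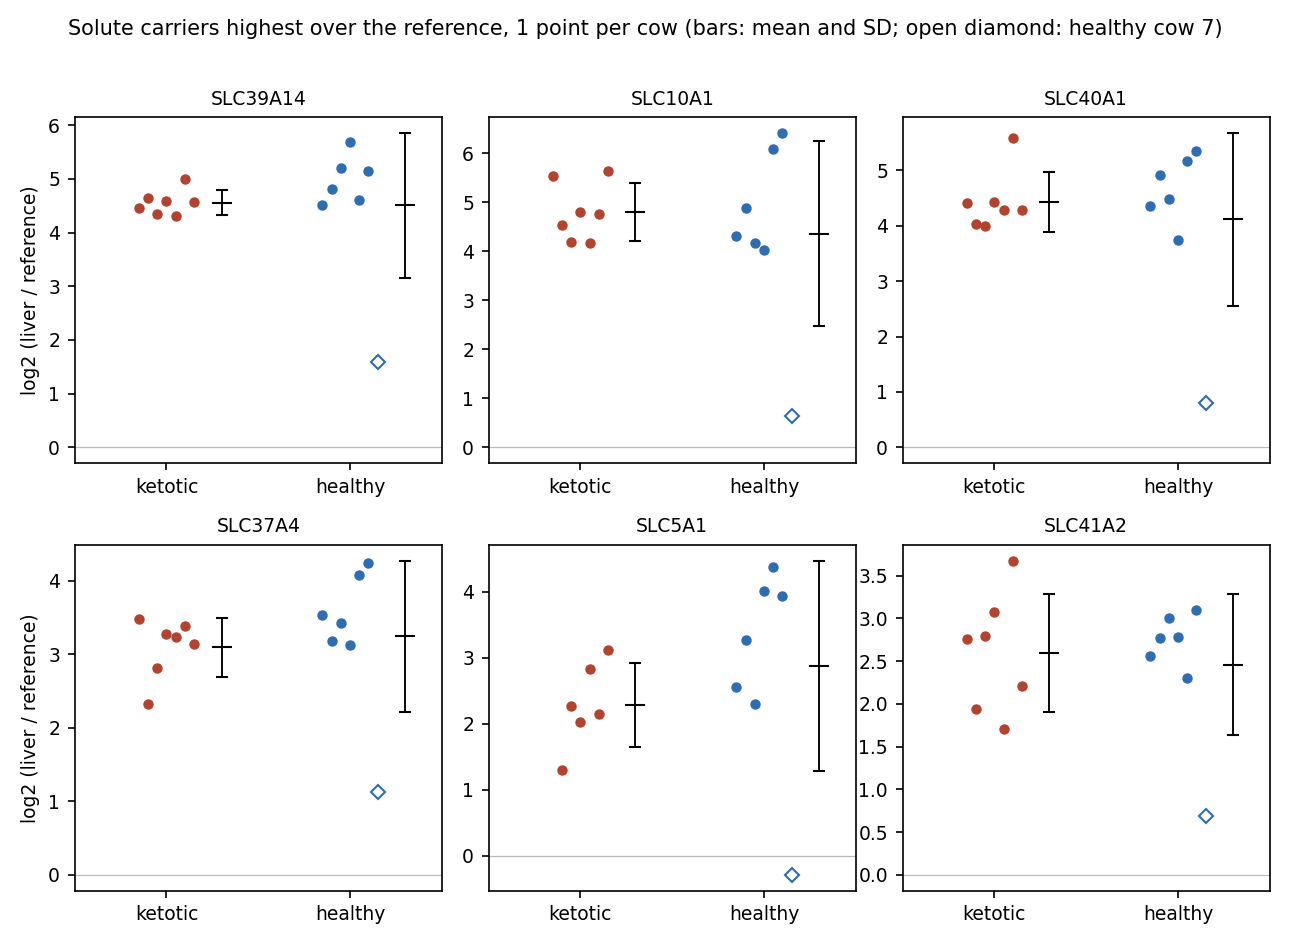
Log2 ratio of liver over reference in each cow for the 6 solute carriers with the highest healthy ratios, ketotic cows on the left and healthy cows on the right of each panel. Points are cows, bars are the mean and SD, and the open diamond is healthy cow 7, which is the lowest healthy cow in every panel. The groups overlap in all 6 panels.

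ENT1 (SLC29A1) was also above the reference at 2.38 (SE 0.17, 5.21-fold), ZnT1 (SLC30A1) at 1.47 (2.76-fold), MCT2 (SLC16A7) at 1.19 (2.28-fold) and GLUT4 (SLC2A4) at 0.56 (1.48-fold). Both nucleoside carriers, 9 of 17 trace metal carriers, 5 of 9 sugar carriers and 5 of 7 carboxylate carriers were above the reference. Of 16 amino acid carriers 5 were above and 9 below. Over all genes 30.9% were above and 37.4% below, so the amino acid carriers above were near the share of all genes. The system L member SLC43A1, singled out after its value was seen, was the highest of the amino acid carriers at 2.35 (SE 0.23). LAT1 (SLC7A5) at -0.79, SLC1A5 at -0.83, SLC3A2 at -1.11 and SLC38A2 at -1.85 were below the reference.

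The lowest ratio was that of GLUT3 (SLC2A3), which stood at -5.47 (SE 0.32, 44.2-fold under the reference). SLC12A2 stood at -3.76 (13.6-fold), SLC34A2 at -3.59 (12.1-fold), the vesicular glutamate transporter SLC17A7 at -3.22 (9.31-fold), SLC35F2 at -3.13 (8.77-fold) and SLC39A10 at -2.37 (5.16-fold). MCT4 (SLC16A3) followed at -2.33 (5.03-fold) and GLUT1 (SLC2A1) stood at -1.60 (3.04-fold). Adjusted p-values for these 8 ran from 3.07e-09 to 2.30e-05. SLC17A7 stood at -3.73 and SLC12A2 at -4.19 without healthy cow 7.

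Several called carriers lay near the reference in healthy liver. SLC39A1 averaged -1.15 ± 0.36 in ketotic and 0.10 ± 0.24 in healthy cows (SD, n = 7 each), and SLC7A7 averaged 1.59 ± 0.43 in ketotic and 0.52 ± 0.57 in healthy cows. The healthy ratio of SLC39A1 was not called (adjusted p = 0.481). SLC39A11 at 0.39 and SLC35A5 at 0.38 were above the reference in healthy liver, while SLC15A3 (-0.58), SLC44A2 (-0.83) and SLC35A4 (-0.88) were below it.

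Probes of a gene did not always agree. Of 10 members with 2 probes, 8 had both tested. For SLC38A10, a relative of SLC38A2 singled out after its values were seen, the probes stood at -0.93 and 1.49 in healthy liver. Tested singly, 1 of its probes differed by -0.60 in ketotic cows (adjusted p = 0.0436) and the other by -0.13, so its mean is uncertain. All 7 called members rested on 1 probe each.

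The 22 members without a test had values in at most 4 cows of at least 1 group. Fewer ketotic than healthy cows had a value for 13 of them, more for 6 and as many for 3. The widest gaps were those of the peptide transporter SLC15A1, with values in 1 ketotic and 6 healthy cows, and of SLC46A3, with 2 and 7. The thiamine transporter SLC19A3 and the sialic acid transporter SLC17A5 had values in 3 ketotic and 7 healthy cows. The others were SLC36A2, SLC38A5, SLC6A20 and SLC7A9 among the amino acid carriers, and SLC10A4, SLC22A8 and SLC22A5 among those of organic ions and carnitine. SLC37A2 and SLC5A2 carry sugars or their phosphates, SLC26A2, SLC26A3, SLC34A1, SLC9A2 and SLC9B1 carry ions, SLC18A2 carries amines, SLC11A1 and SLC31A2 carry metals, and SLC14A1 carries urea.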

How the data were processed

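Liver RNA of 14 cows was measured against a common reference on 28 two-colour arrays, 2 per cow. The authors deposited 1 log2 ratio of the channels per spot; how they made it is not given in the sources used. Dyes were read from the titles, as 1 ketotic array's dye fields contradict each other. The sign was turned on arrays whose liver carried Cy3.

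Adjacent spots were averaged (27648 spots, 13824 probes). Each array was centred on its median probe, because deposited medians ran from -1.05 to 2.16. Values at the ceiling of 16.61 (6245) and empty cells (103458) were counted as missing. A cow needed both arrays and a probe at least 5 cows of each group. Gene values are means over probes, named from the platform annotation. All 130 symbols were unchanged in the table of RefSeq genes used to update them. Levels of dim spots could not be filtered, as no intensities were used. The number of arrays limits the precision, and no batch is given in the labels.

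Groups were compared with limma 3.58.1 in R 4.3.3 (lmFit, eBayes, two-sided, Benjamini-Hochberg over 6958 genes), after tests on simulated data. The healthy mean was tested against 0 in the same fit. Figures were drawn with matplotlib 3.10.9. Members and lists were chosen with earlier results of these data known. Named were all called members, the member with the smallest p in each class, the 6 highest and 6 lowest healthy ratios and 28 fixed genes, some of which, among them SLC2A2, SLC16A1, SLC13A5, SLC22A7, SLC7A2, SLC38A3, SLC38A4 and SLC28A1, were not analysed here. Substrate class and location were assigned by hand from family knowledge. Alternatives covered scaling, dye, filters, model and each cow left out.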

Additional observations from a re-analysis of the deposited data

Results flagged for a closer look

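Healthy cow 7 was far from the other 6 healthy cows for 9 of the named solute carriers and for its correlation with its group. It had the lowest healthy log2 ratio for SLC10A1 (0.65), SLC37A4 (1.12), SLC39A14 (1.60), SLC40A1 (0.80), SLC41A2 (0.69) and SLC7A7 (-0.70). It had the highest for SLC17A7 (-0.17), SLC39A1 (0.59) and SLC3A2 (-0.30). Its median correlation with the other healthy cows was 0.434. In the ketotic group, cow 4 was far below the others for SLC12A2 (-5.78) and cow 5 for SLC66A1 (-1.85), while cow 6 was far above them for SLC40A1 (5.59) and cow 2 for SLC44A1 (0.017). Of 80 groups examined, 14 held such a cow, and in 10 of these it was healthy cow 7. In independent groups about 1 in 20, or 4, would be flagged. These groups share the same cows, and the genes were partly chosen by their values. The excess can therefore not be set against chance in this way. The cause was not tested.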

How the results depend on the processing

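The 7 called members kept their sign under all 17 settings other than leaving out a cow. With 7 called in the main setting (6 lower, 1 higher), the counts were 20 lower and 0 higher on values as deposited, 3 and 2 with arrays centred on probes measured on all arrays, 3 and 0 with 1 spread per array, and 4 and 0 with quantile normalisation (4 in all). Using just the arrays with Cy5-labelled liver gave 1 and 0, those with Cy3-labelled liver 3 and 3, array weights 9 and 2 (11 in all), and a covariate for empty spots 2 and 0. With small whole-number ratios counted as missing, a choice made after seeing the data, 5 were lower and 2 higher. These counts are of members alone, without the share of all genes called in each setting. They therefore do not set the members apart from other genes. On values as deposited the median difference of all genes was below that of the members. Leaving out 1 cow at a time gave 5 to 9 called, 4 to 8 lower and 1 to 1 higher. Against the reference, leaving out 1 cow gave 70 to 76 called, 39 to 44 above and 30 to 33 below; 24 were above on values as deposited and 21 below with values required in all 14 cows, where fewer genes were tested. SLC39A1 was called in all of these fits, SLC15A3 in 10 of the 17 settings, SLC44A2 in 11, SLC35A4 and SLC7A7 in 12, SLC35A5 in 13 and SLC39A11 in 16. Uncalled members passed in places: SLC2A1 on values as deposited and with array weights, SLC2A4 with the common probes and with array weights, SLC3A2 on values as deposited and with all arrays fitted, SLC29A1 with quantile normalisation, SLC4A1 without the small ratios, and SLC16A7 and SLC66A1 on values as deposited. Where a call was lost, the cause was not tested. No paired analysis was possible because replicate numbers only name cows and pair none across groups. Depth could not be judged, since no intensities were used.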
